A study of Mus musculus with 12 samples.

Results

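Liver RNA of mice that recovered on their own for 4 weeks after carbon tetrachloride (CCl4) was compared with liver RNA of mice killed when CCl4 ended. The comparison took 3 libraries of the regression group (REG 1 to 3) and 3 of the liver fibrosis group (LFG 1 to 3), chosen by their labels, which is 6 of the 12 samples of the series and 6 of the 9 libraries with counts in the table. All of these animals were male mice of the strain given as C57BL/6 in the labels and as C57BL/6J in the study's text, 6 weeks old on arrival, and all received CCl4 at 1 mL/kg in olive oil, injected into the peritoneum 2 times a week over 8 weeks. LFG mice were sacrificed at that point. REG mice were then given 200 µL of phosphate-buffered saline (PBS) into a tail vein 2 times a week over 4 weeks. REG mice were therefore older by 4 weeks, had a longer time since the last CCl4 and had intravenous injections, and these differences cannot be told apart here. No group without CCl4 was part of the comparison, so a value in REG could not be set against healthy liver, and the time of day and feeding state at sacrifice are not given in the sources used here. Nothing in the labels says more of the 3 libraries of a group than that they are separate samples, so the p-values measure only the spread between these samples.

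CCl4 is turned into a reactive radical by Cyp2e1, a cytochrome P450 of the hepatocytes around the central vein, and kills those hepatocytes. Hepatic stellate cells, which store vitamin A in healthy liver, then become myofibroblasts and deposit fibrillar collagen, while monocyte-derived macrophages gather at the scar. After the toxin is withdrawn the matrix is partly degraded, scar macrophages and myofibroblasts decline, and hepatocytes refill the central zone.

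The deposited table gives the reads counted on 21936 genes in each library. Totals ran from 13837445 (LFG 3) to 19840917 (REG 3), and 13924 to 15248 genes had at least 1 count. Levels below are log2 CPM, counts scaled to the library total with TMM and a prior count of 2 on a log2 scale, so that a step of 1 doubles the level. They are compared between libraries within a gene and not between genes. In the fit, the TMM factors were 1.38, 1.10 and 0.80 for LFG 1, LFG 2 and LFG 3 and 0.93 to 0.95 for REG. At an equal share of counts, a library with a smaller factor reads higher. Albumin (Alb), the chief secreted protein of hepatocytes, took 8.84%, 11.8% and 8.22% of the counts in LFG 1, LFG 2 and LFG 3 and 12.2% to 13.6% in REG.

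LFG 3 stood apart from LFG 1 and LFG 2. Across genes, log2 CPM correlated between LFG 1 and LFG 2 by 0.964 and among the REG libraries by 0.963 to 0.981, while LFG 3 correlated with LFG 1 by 0.831, with LFG 2 by 0.873 and with the REG libraries by 0.896 to 0.940 (genes are not independent replicates). The first principal component held 61.7% of the variance and put LFG 1 and LFG 2 at -72.0 and -49.2 and LFG 3 at 99.9, with REG 1, REG 2 and REG 3 between them at -15.0, 16.1 and 20.3. The second component, with 20.7% of the variance, was the one that separated the groups: LFG 1, LFG 2 and LFG 3 lay at 31.2, 24.3 and 38.5, and REG 1, REG 2 and REG 3 at -38.6, -35.2 and -20.2. LFG 3 was thus on the LFG side of the second component and beyond REG on the first. LFG 3 also had the fewest genes detected and the highest share of counts on mitochondrially encoded genes, 6.24% against 3.95% to 4.34% in the other 5 libraries.

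**Figure D1:**
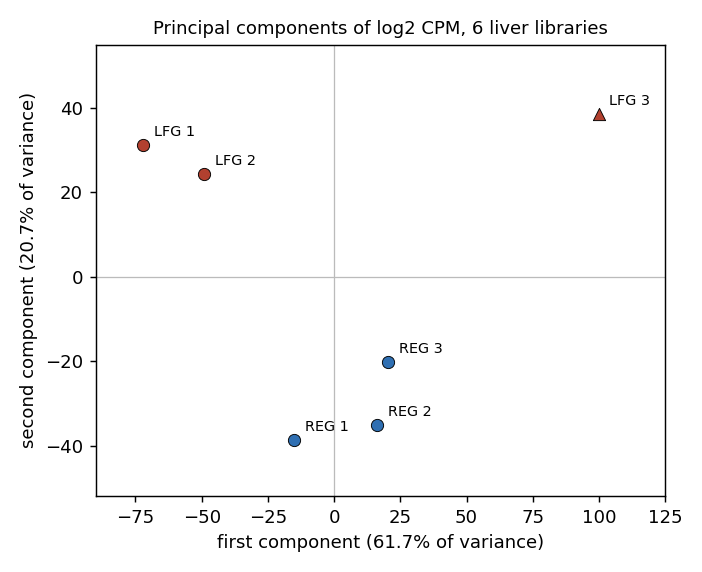
Scores of the 6 libraries on the first (horizontal) and second (vertical) principal component of log2 CPM, with the share of variance on each axis and 1 point per library. LFG 3, at 99.9 on the first component, lies on the far side of REG from LFG 1 and LFG 2, while on the second component all 3 LFG libraries lie above all 3 REG libraries.

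With all 6 libraries, 12517 genes passed the filter on low counts and 0 (0% of those tested) passed the thresholds of the study. These were 0.05 for the p of edgeR's quasi-likelihood test, adjusted after Benjamini and Hochberg, and 1 for the size of the log2 fold change in either direction. The smallest adjusted p was 0.23. Without adjustment, 578 genes (4.62%) were higher in REG and 839 (6.7%) lower at a p under 0.05, and with upper-quartile scaling 857 and 680. These counts became 2359 and 2471 without LFG 3, 373 and 531 without LFG 2, 262 and 322 without REG 2, and 391 and 413 without REG 1. With the same 6 libraries DESeq2 called 240 genes (93 higher and 147 lower in REG) and limma with voom and quality weights 1285 (441 higher and 844 lower). The weights that limma gave were 0.141 for LFG 3 and 0.699 to 2.87 for the other libraries. Between the groups 1356 genes (10.8%) had all 3 REG values above all 3 LFG values, and 1024 (8.18%) had all 3 below. Leaving out LFG 3 lowered the biological coefficient of variation from 0.399 to 0.244, and edgeR then called 1391 of 12948 genes, 493 (3.81%) higher and 898 (6.94%) lower in REG. Below, "rose" and "fell" are used only for genes past both thresholds in that fit of 5 libraries, and the place of LFG 3 is given for these genes or their lists. LFG 3 was left out because it lay apart in these same data, which leaves only LFG 1 and LFG 2 in their group. The adjusted p-values of that fit therefore overstate the evidence and describe these 5 libraries only. Folds are log2 fold changes of REG over LFG with their standard errors.

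The place of LFG 3 was counted for each direction of change. Of the 898 genes that fell in REG without LFG 3, LFG 3 lay above the REG libraries, with LFG 1 and LFG 2, for 210 (23.4%), within the REG range for 147 (16.4%) and below all 3 REG libraries for 541 (60.2%). Of the 493 that rose, LFG 3 lay below REG for 198 (40.2%), within it for 126 (25.6%) and above it for 169 (34.3%). Over all 12517 genes tested the shares were 34.7% above, 24.0% within and 41.2% below. The results that follow are ordered by these classes: first genes for which LFG 3 sided with LFG 1 and LFG 2, then genes for which it lay at or beyond REG on the same side as the change, then genes whose direction turned with LFG 3. Members of the gene lists that are named outside the naming rule were chosen after their values were seen.

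**Figure D2:**
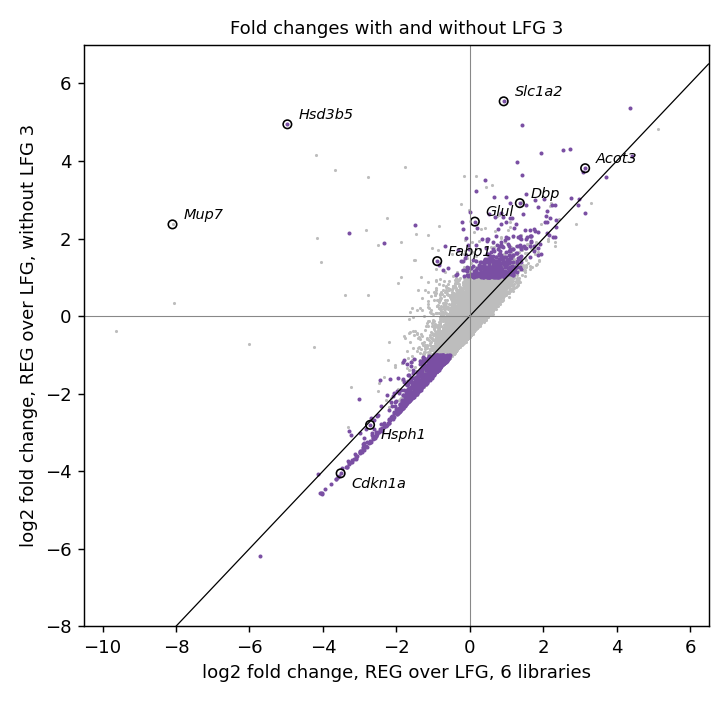
Log2 fold change of REG over LFG for each of the 12517 genes tested in both fits, with all 6 libraries on the horizontal axis and without LFG 3 on the vertical axis. Purple points mark the 1272 of them past both thresholds without LFG 3, grey points the rest; Cdkn1a and Hsph1 keep their sign in both fits, while Hsd3b5 and Fabp1 lie on opposite sides of 0.

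Heat shock chaperones, which hold or refold damaged proteins in the cytosol, were lower in REG, and LFG 3 was on the side of the other LFG libraries. Of the 26 tested members of this list, 26 had a negative fold change with 6 libraries, 14 had all REG libraries below all LFG libraries (8.18% of all genes did), 15 were lower at an unadjusted p under 0.05 (6.7% of all genes) and 11 fell without LFG 3 (6.94% of all genes). The median log2 fold change was -0.95 with LFG 3 and -0.68 without it, where the median of all genes tested was -0.07 and -0.01. LFG 3 lay above the REG range for 21 of the 26. The mean deviation of the list from its 6-library mean was 0.31, 0.53 and 0.58 log2 in LFG 1, LFG 2 and LFG 3 and -0.64, -0.45 and -0.33 in REG 1, REG 2 and REG 3, so LFG 3 was the highest of the 6 libraries on the TMM scale. By summed CPM without TMM, LFG 3, at 4923, was below LFG 1 and LFG 2, at 7636 and 6652, and above REG, at 2847 to 3304.

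Hsph1 (chr5:149614287-149636376, minus strand), a nucleotide exchange factor for Hsp70, had 2965, 2805 and 1183 counts in LFG 1, LFG 2 and LFG 3 and 207, 340 and 510 in REG 1, REG 2 and REG 3, or log2 CPM of 6.96, 7.27 and 6.70 against 3.71, 4.28 and 4.79. Its log2 fold change was -2.72 ± 0.32 (SE, adjusted p = 0.23 by edgeR's quasi-likelihood test) with 6 libraries and -2.81 (adjusted p = 0.0107) without LFG 3. The groups did not overlap, and the lowest LFG library was LFG 3. The stress-inducible Hsp70 genes Hspa1a and Hspa1b differed by more: Hspa1b read 5.38, 6.13 and 6.15 in LFG and 1.83, 1.84 and 3.71 in REG, a difference of -3.24 ± 0.60 with and -3.07 without LFG 3 (adjusted p = 0.0181), and Hspa1a differed by -3.28 ± 0.44 and -2.97. These 2 genes are near-identical, so the split of reads between them is uncertain. Hspa8, the constitutive Hsp70, read 10.95, 11.09 and 11.14 in LFG and 9.69, 9.80 and 10.08 in REG (-1.24 ± 0.25). Of the J-domain partners of Hsp70, Dnaja1 read 8.75, 8.71 and 8.81 against 7.38, 7.45 and 8.03, with a fold of -1.15 ± 0.25, and Dnajb1 had a fold of -1.28 ± 0.27. Hsp90aa1, the inducible cytosolic Hsp90, differed by -1.71 ± 0.29 and fell by 1.89 on the log2 scale without LFG 3 (adjusted p = 0.0107). Hspd1, the chaperonin of the mitochondrial matrix, and the small heat shock protein Hspb8 overlapped between the groups, with folds of -0.01 ± 0.20 and -0.02 ± 0.29.

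Genes of the unfolded protein response, by which the endoplasmic reticulum (ER) adds folding capacity under stress, were also lower in REG. The list's mean deviation was 0.17, 0.54 and 0.29 in LFG 1, LFG 2 and LFG 3 and -0.34, -0.31 and -0.34 in REG 1, REG 2 and REG 3, so LFG 3 lay between LFG 1 and LFG 2. All REG libraries were below all LFG libraries for 15 of 32 tested members (8.18% of all genes), 10 fell without LFG 3 (6.94% of all genes) and 0 rose, and the median was -0.62 with and -0.47 without LFG 3. Creld2 (chr15:88819646-88826683, plus strand), an ER protein disulfide isomerase, had 1638, 2039 and 1077 counts in LFG and 347, 431 and 405 in REG and differed by -2.06 ± 0.23 (adjusted p = 0.23), or -2.0 without LFG 3 (adjusted p = 0.0107). Its adjusted p with 6 libraries was among the lowest of any gene. Syvn1, the ubiquitin ligase of ER-associated degradation, read 6.66, 7.60 and 7.72 in LFG and 4.76, 5.33 and 5.38 in REG, a difference of -2.27 ± 0.34, with LFG 3 the highest library. Hspa5, the ER-resident Hsp70, read 10.13, 10.48 and 9.82 against 8.70, 8.65 and 9.13 (-1.37 ± 0.28). The secreted ER stress protein Manf and the ER chaperone Hyou1 gave -1.59 ± 0.27 and -1.78 ± 0.35, and both fell without LFG 3 (adjusted p = 0.0145 and 0.0159). Hsp90b1, the ER-resident Hsp90, did not overlap either but differed by only -0.55 ± 0.20 and did not pass without LFG 3. Xbp1, which encodes a transcription factor of the response, was the only member of the list that was higher in REG without overlap, at 8.45, 8.20 and 8.27 against 7.51, 7.45 and 7.98 (0.60 ± 0.24). Counts per gene do not separate the spliced from the unspliced Xbp1 transcript.

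The promoters of some of these genes are shown because all REG libraries were below all LFG libraries for each of them and because the window holds a match to a motif of the response. Promoters of other such genes, Hsph1, Dnajb1, Bag3, Stip1 and Pdia4 among them, hold no match and are not shown. Each sequence is the 250 bases before the start of transcription, from RefSeq on GRCm38.p6, read 5′ to 3′ on the strand of the gene. In the first 3 the capitals mark the ER stress element, CCAAT, any 9 bases and then CCACG, or its reverse complement, and in the last 2 the capitals mark the heat shock element core GAANNTTC, which reads the same on both strands.
Creld2 (chr15:88819396-88819645, plus strand): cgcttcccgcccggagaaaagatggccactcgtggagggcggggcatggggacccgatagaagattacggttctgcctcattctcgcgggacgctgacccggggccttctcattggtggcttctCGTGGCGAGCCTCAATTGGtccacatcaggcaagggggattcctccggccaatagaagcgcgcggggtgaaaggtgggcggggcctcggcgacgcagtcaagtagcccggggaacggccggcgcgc
Syvn1 (chr19:6046326-6046575, plus strand): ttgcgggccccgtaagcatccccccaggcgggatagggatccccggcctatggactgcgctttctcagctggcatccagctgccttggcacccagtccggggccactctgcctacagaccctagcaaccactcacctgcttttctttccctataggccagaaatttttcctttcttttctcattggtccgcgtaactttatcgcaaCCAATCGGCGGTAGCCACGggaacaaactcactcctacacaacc
Hspa5 (chr2:34771840-34772089, plus strand): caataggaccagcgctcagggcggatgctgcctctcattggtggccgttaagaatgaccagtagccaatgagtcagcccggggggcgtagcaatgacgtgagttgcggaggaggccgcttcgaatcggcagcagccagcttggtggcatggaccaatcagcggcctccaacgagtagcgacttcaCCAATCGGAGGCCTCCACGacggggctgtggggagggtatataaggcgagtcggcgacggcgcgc
Hspa1a (chr17:34972157-34972406, minus strand): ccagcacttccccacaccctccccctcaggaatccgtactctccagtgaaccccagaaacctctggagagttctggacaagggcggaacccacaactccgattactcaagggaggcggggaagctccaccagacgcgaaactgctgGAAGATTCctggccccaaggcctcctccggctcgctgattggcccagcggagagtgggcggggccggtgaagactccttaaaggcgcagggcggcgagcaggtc
Dnaja1 (chr4:40722218-40722467, plus strand): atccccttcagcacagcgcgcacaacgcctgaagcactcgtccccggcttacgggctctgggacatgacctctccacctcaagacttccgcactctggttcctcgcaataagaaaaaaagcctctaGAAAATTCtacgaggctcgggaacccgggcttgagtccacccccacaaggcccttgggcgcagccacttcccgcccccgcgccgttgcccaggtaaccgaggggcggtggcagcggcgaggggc
Dnaja1 has 3 starts in RefSeq, and the sequence printed is that of the only one with a match. The ER stress element was in 8 of the 30 tested genes of the unfolded protein list that had a promoter entry (26.7%), in 4 of 13 (30.8%) of those that did not overlap and were lower in REG, and in 35 of all 27025 genes with a promoter (0.13%). It began at position -126 in Creld2, on the reverse strand, at -44 in Syvn1 and at -65 in Hspa5, and Hsp90b1 had 2 matches, at -212 and -107. Genes with several starts were counted once. The heat shock element core was in 8 of 21 tested heat shock genes (38.1%), in 3 of 11 (27.3%) of those that did not overlap and were lower in REG, and in 2088 of the 27025 (7.73%). It began at -104 in Hspa1a and at -124 in Dnaja1. Hsph1 had no match to this core in the window, and Hspd1, whose groups overlapped, had a match. Such matches describe the letters only.

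Immediate early genes, transcription factors switched on within minutes of a stimulus, were lower in REG for 8 of 23 tested members without overlap and higher without overlap for 0 (8.18% and 10.8% of all genes), and 4 fell without LFG 3 (6.94% of all genes). The orphan receptor Nr4a1 read 1.79, 3.65 and 4.74 in LFG and 1.43, 0.95 and 0.19 in REG (-3.01 ± 0.78, and -2.13 without LFG 3). Fosl2, an AP-1 subunit, read 4.16, 5.17 and 3.72 against 2.76, 2.59 and 2.84 and fell without LFG 3 (adjusted p = 0.0149). For Fos the difference leaned on LFG 3: its levels were 1.44, 1.88 and 3.71 in LFG and 0.64, 0.19 and 0.88 in REG, and the fold of -2.22 ± 0.69 shrank to -1.14 (adjusted p = 0.0793). Jun, at -1.11, and Atf3, at -1.19, did not overlap but did not pass in either fit.

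Among growth-arrest and p53 target genes 2 patterns stood side by side. Trp53inp1, a stress-induced nuclear protein, read 7.18, 8.58 and 7.66 in LFG and 4.88, 5.38 and 5.15 in REG, a difference of -2.83 ± 0.40 with and -2.91 ± 0.38 without LFG 3 (adjusted p = 0.0133), and Gadd45g read 5.58, 7.13 and 6.66 against 4.21, 3.92 and 3.65 (-2.70 ± 0.42). Both groups of libraries were apart for each of these genes, LFG 3 included. Cdkn1a, the cell cycle inhibitor p21, behaved otherwise: LFG 1 and LFG 2 were at 5.19 and 5.36, LFG 3 at 0.83 and REG at 2.05, 0.51 and 0.88, so LFG 3 lay within REG, and the fold was -3.52 ± 1.07 with and -4.06 ± 0.41 without LFG 3 (adjusted p = 0.0104). Zmat3 had the same order, with LFG 3 at 2.20 inside the REG range of 1.78 to 2.64. Over the list, 8 of 24 tested genes were lower in REG without overlap (8.18% of all genes), and 9 fell and 1 rose without LFG 3 (6.94% and 3.81% of all genes). The gene that rose was Gadd45a (1.98, adjusted p = 0.0471), for which LFG 3, at 2.62, was above every REG library.

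The list of gluconeogenesis and glucose sensing was divided. Of 17 tested genes 2 were higher in REG without overlap and 3 lower (10.8% and 8.18% of all genes), 1 rose and 2 fell without LFG 3 (3.81% and 6.94%), and the median was 0.10 with and 0.50 without LFG 3. The members higher without overlap were Fbp1 and Pcx, enzymes of glucose synthesis, at 0.70 ± 0.27 and 0.49 ± 0.24, and neither passed in either fit. The member that rose was the glucagon receptor Gcgr (1.29, adjusted p = 0.0249). Those that fell were the coactivator Ppargc1a (-2.06, adjusted p = 0.0104) and Igfbp1. Igfbp1, a secreted IGF-binding protein that insulin represses, read 8.16, 10.82 and 6.56 in LFG and 5.81, 5.84 and 4.43 in REG, a difference of -4.06 ± 1.12 and, without LFG 3, -4.55 (adjusted p = 0.0159). G6pc, the last enzyme of glucose output, read 8.13, 9.85 and 8.63 against 5.03, 6.02 and 8.01. It did not pass without LFG 3 (adjusted p = 0.0841), nor did Foxo1, a transcription factor that insulin holds back and the other member lower without overlap (-0.75 ± 0.19), and Pck1, the gluconeogenic PEP carboxykinase, overlapped between the groups (-1.26 ± 0.44). Of other lists, Irs2, an insulin receptor substrate, read 4.58, 6.52 and 4.84 in LFG and 3.40, 3.98 and 2.74 in REG. The deadenylase Noct, at -2.46 ± 0.58, and the lipoprotein lipase inhibitor Angptl4, at -1.53 ± 0.34, were lower in REG without overlap and fell without LFG 3 as well. Whether time of day or feeding moved with the groups was not tested, since neither is given.

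**Figure D3:**
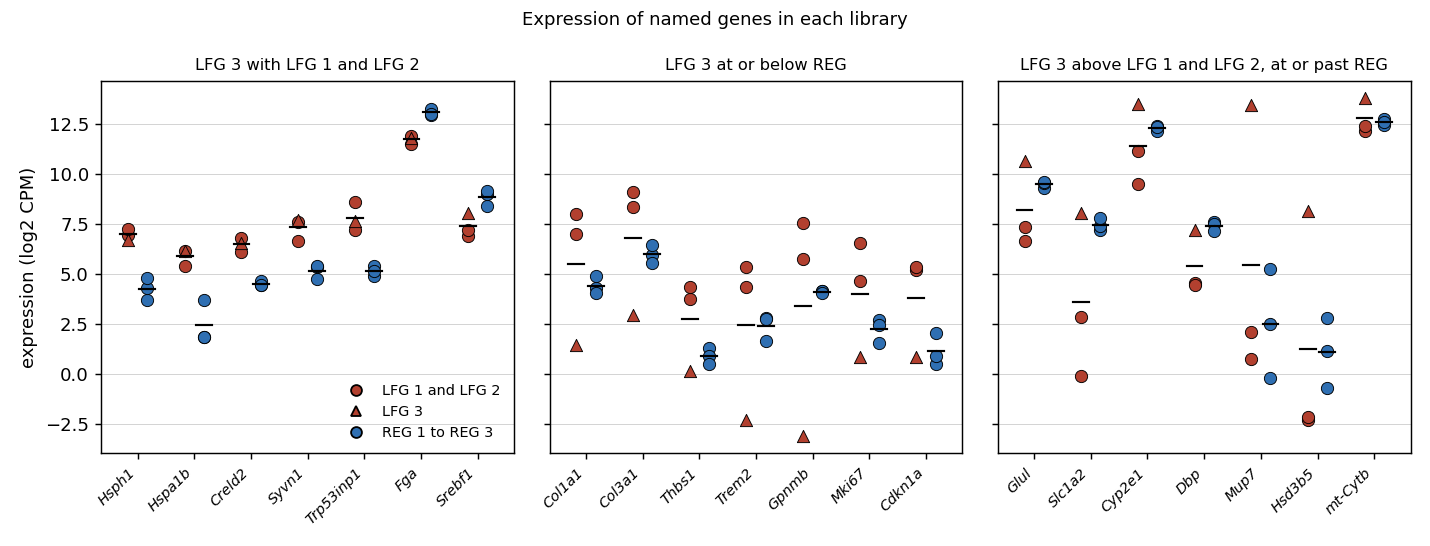
Log2 CPM (vertical axis) of named genes in each library, in 3 panels by the place of LFG 3. Each point is a library, the triangle is LFG 3, and the bar is the group mean (n = 3); Hsph1 and Creld2 have LFG 3 beside LFG 1 and LFG 2, Col1a1 and Mki67 have LFG 3 below every REG library, and Glul and Mup7 have it above every REG library.

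Without regard to lists, the 10 genes with the smallest p whose groups did not overlap were taken in each direction. Those lower in REG were Creld2, Hsph1, Serpine2, Tra2a, Tnfrsf12a, Trp53inp1, Gstp2, Tmc7, Syvn1 and Gadd45g, and all 10 fell without LFG 3. The fit without LFG 3 uses the same values by which these genes were picked, so its calls are not separate support for them. Serpine2, a secreted inhibitor of thrombin and plasminogen activators, was nearly the same in the 3 LFG libraries, at 3.62, 3.60 and 3.59, and read 1.76, 1.72 and 1.29 in REG (-2.08 ± 0.26, adjusted p = 0.23). Tnfrsf12a, the receptor of the cytokine TWEAK, read 4.43, 3.74 and 3.89 against 2.25, 2.15 and 2.32 (-1.88 ± 0.26). Gstp2, a glutathione transferase, had the largest difference of the 10 at -4.14 ± 0.59, but shares sequence with Gstp1, for which LFG 3 read 11.04 and the groups overlapped. Hsph1, Creld2, Syvn1, Trp53inp1 and Gadd45g belong to the stress lists described above.

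The 10 genes higher in REG by that rule were 1810046K07Rik, Acpp, Spns2, Ggt6, Bco2, Dntt, Pdzk1ip1, Ttc7, Prtn3 and C77080. All of them rose without LFG 3, again on the values by which they were picked. 1810046K07Rik read -0.07, 0.28 and 0.11 in LFG, from 20, 20 and 11 counts, and 3.21, 3.20 and 2.45 in REG, with a fold of 2.98 ± 0.37. Its adjusted p of 0.23 was the smallest of the fit, shared with Creld2, Hsph1 and Serpine2. Bco2, which cleaves carotenoids, read 2.16, 2.49 and 2.90 against 4.03, 4.34 and 4.33 (1.67 ± 0.27). Spns2, an exporter of sphingosine 1-phosphate, read 3.87, 3.55 and 3.54 against 4.74, 5.21 and 5.0 (1.30 ± 0.20). S1pr5, a receptor of the same lipid, read 1.92, 1.77 and 2.92 against 3.85, 4.36 and 3.97 and rose without LFG 3 (adjusted p = 0.0107). Prtn3, a serine protease of neutrophil granules, read 1.92, 1.28 and 1.36 against 5.22, 3.52 and 4.22 (2.94 ± 0.50).

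Sterol synthesis was the list with the most genes higher in REG in every library. All REG values were above all LFG values for 11 of 26 tested members (10.8% of all genes), 0 were below, and LFG 3 lay below the REG range for 20 and above it for 0. The median fold was 0.62 with and 0.82 without LFG 3. Mvd, the decarboxylase of the mevalonate pathway, read 4.0, 5.13 and 4.50 in LFG and 5.93, 6.41 and 5.41 in REG (1.31 ± 0.36), and the farnesyl diphosphate synthase Fdps 0.54, 2.41 and 1.82 against 3.42, 3.14 and 3.44 (1.55 ± 0.49). Without LFG 3, 1 member of 26 rose and 1 fell (3.81% and 6.94% of all genes), so the called counts were near or below the shares of all genes. The one that rose was the desaturase Sc5d (1.12, adjusted p = 0.0429), and the one that fell was Insig2 (-1.28, adjusted p = 0.0165), an ER protein that holds back SREBP. LFG 1 was the lowest library for Mvd and Fdps, and the list's mean deviation was -0.98, 0.16 and -0.41 in LFG 1, LFG 2 and LFG 3. Srebf1, which encodes the SREBP of fatty acid synthesis, read 6.88, 7.20 and 8.04 against 8.39, 9.02 and 9.16 and rose without LFG 3 (1.83 ± 0.29, adjusted p = 0.0154). Its targets Fasn and Acly, the enzymes of fatty acid and acetyl-CoA supply, overlapped, at 0.73 ± 0.49 and 0.36 ± 0.36.

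Secreted liver proteins and periportal enzymes were higher in REG for part of their lists. The 3 chains of fibrinogen, Fga, Fgb and Fgg, were apart between the groups and rose without LFG 3: Fga read 11.52, 11.89 and 11.82 in LFG and 13.24, 12.97 and 13.02 in REG (1.29 ± 0.30, and 1.36 with adjusted p = 0.0297 without LFG 3), and Fgb and Fgg differed by 1.17 ± 0.34 and 0.96 ± 0.35. Alb was higher in every REG library but by 0.57 ± 0.47 and did not pass. Of 30 tested acute phase genes 8 were higher without overlap and 0 lower, and of 36 genes of complement and coagulation 9 and 0 (10.8% and 8.18% of all genes). Coagulation factor F7 read 5.62, 6.42 and 7.0 against 7.32, 7.35 and 7.35 and rose without LFG 3 (adjusted p = 0.0232). Hal, the first enzyme of histidine breakdown, read 6.55, 7.61 and 8.20 against 9.25, 9.42 and 8.93 (1.56 ± 0.43, and 2.03 with adjusted p = 0.0167 without LFG 3). Gls2, the liver glutaminase, gave 1.07 ± 0.39. In the urea cycle and periportal list 5 of 15 genes were higher without overlap (10.8% of all genes) and 4 rose (3.81%), but Cps1, the entry enzyme of the urea cycle, read 11.99, 12.40 and 10.61 in LFG and 12.03, 12.07 and 12.08 in REG and did not pass in either fit.

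Bile acid and choline genes added a few more. Of 22 tested bile acid genes 5 were higher and 1 lower without overlap, and 3 rose and 0 fell without LFG 3. Of 27 tested phosphatidylcholine and choline genes 7 were higher and 1 lower without overlap, and 2 rose and 2 fell without LFG 3. The shares of all genes were 10.8% and 8.18% without overlap, and 3.81% and 6.94% for those that rose and fell. The choline genes that fell are not among those named next. Cyp7a1, the rate-limiting enzyme of bile acid synthesis, was between 8.26 and 8.30 in REG and spread over 5.39, 7.69 and 6.64 in LFG. Its difference of 1.37 ± 0.53 did not pass with or without LFG 3 (adjusted p = 0.414 and 0.137). Slc10a1, which takes bile acids up from blood, read 7.14, 8.56 and 9.23 against 9.30, 9.73 and 10.13 and rose without LFG 3 (adjusted p = 0.0412). The glycine methyltransferase Gnmt, which consumes S-adenosylmethionine, read 7.95, 9.92 and 9.78 against 10.60, 11.45 and 11.18 (1.62 ± 0.54). Chpt1, which makes phosphatidylcholine and is of interest to the study, read 5.21, 6.46 and 7.22 against 6.41, 7.05 and 6.94 and overlapped. Acot3, a peroxisomal thioesterase, had the largest difference of the fat oxidation list, at 0.70, 1.84 and 2.76 against 5.88, 5.07 and 3.54, with 3.14 ± 0.75 for 6 libraries and 3.81 ± 0.74 (adjusted p = 0.0204) without LFG 3. That list was divided: 4 of 27 tested genes rose and 3 fell without LFG 3 (3.81% and 6.94% of all genes), and the median was 0.02 with and 0.19 without LFG 3.

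The fibrillar collagens were high in LFG 1 and LFG 2, intermediate in REG and lowest in LFG 3. Col1a1 (chr11:94936224-94953042, plus strand), a chain of collagen I, had 6147, 2281 and 30 counts in LFG and 308, 515 and 300 in REG, or 8.01, 6.97 and 1.46 and 4.28, 4.88 and 4.03 log2 CPM. Without LFG 3 it fell, with a fold of -3.15 ± 0.35 (adjusted p = 0.0109 by edgeR's quasi-likelihood test), while with all 6 libraries the fold was -2.61 ± 1.21 (adjusted p = 0.471). LFG 1 and LFG 2 were above every REG library, and LFG 3 was below every REG library. Col1a2 read 8.24, 7.47 and 1.96 against 5.17, 5.58 and 4.57 and Col3a1 9.09, 8.33 and 2.94 against 5.92, 6.46 and 5.54, and each fell by 2.75 on the log2 scale without LFG 3 (adjusted p = 0.0119 for both). Of 9 tested genes of this list 9 had a negative fold with 6 libraries, 6 fell without LFG 3 (6.94% of all genes) and 0 were apart between the groups with LFG 3, which lay below REG for 7. In bulk RNA, fewer cells of a type and less RNA per cell cannot be told apart.

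In each of the other matrix lists a larger share of members fell than of all genes (6.94%). Without LFG 3, 11 of 20 tested genes of collagen VI and elastic microfibrils fell, 10 of 19 matricellular genes, 8 of 19 basement membrane genes, 8 of 19 collagen-processing genes, 6 of 13 metalloproteinases and 5 of 10 proteoglycans, with 0 rising in any of these lists. Of 10 tested genes of the TIMPs and the plasminogen activator system 6 fell and 1 rose, the plasmin inhibitor Serpinf2 (1.09, adjusted p = 0.028), where 3.81% of all genes rose. With all 6 libraries 2 were lower and 2 higher in REG without overlap (8.18% and 10.8% of all genes). The 2 that were higher were Serpinf2 and Plg, plasminogen, which the liver secretes (0.77 ± 0.32). Col6a3 read 6.53, 5.74 and 1.63 against 3.70, 3.94 and 3.62 (-2.45 without LFG 3, adjusted p = 0.0104) and Eln, elastin, 4.38, 4.38 and 0.52 against 2.29, 2.48 and 1.82 (-2.19). The adhesive glycoprotein Thbs1, an activator of latent TGF-beta, read 3.76, 4.34 and 0.11 against 1.29, 0.91 and 0.50 (-3.23 ± 0.32, adjusted p = 0.0104). LFG 3 lay below REG for each of these 3 genes. Lox, the collagen crosslinking oxidase, had 298, 67 and 1 counts in LFG and 5, 9 and 10 in REG and was tested only without LFG 3 (-4.13 ± 0.58, adjusted p = 0.0145). It passed the filter on low counts only through LFG 1 and LFG 2, where it is high, so this result is no support beyond the counts. Some members of the lists counted above were likewise tested only in that fit. A few matrix enzymes kept all LFG libraries above REG. P4ha1, a prolyl hydroxylase of collagen, read 5.12, 5.22 and 4.76 against 4.09, 3.27 and 3.38 (-1.46 ± 0.29, -1.56 without LFG 3 with adjusted p = 0.0159), and P4ha2 differed by -1.09 ± 0.32. Ctsk, a collagen-cleaving cathepsin, gave -1.63 ± 0.46.

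Markers of the cells that make the scar passed in part. Acta2, the smooth muscle actin of myofibroblasts, read 4.17, 4.0 and -0.46 in LFG and 2.92, 3.54 and 2.08 in REG, and its fold of -0.63 ± 0.95 with 6 libraries and -1.15 ± 0.37 without LFG 3 (adjusted p = 0.0688) did not pass. Without LFG 3 DESeq2 gave it an adjusted p of 0.032, which is past the threshold. With 1 library left out at a time its fold lay between -1.15 and -0.16, the smallest without LFG 1, and it was -0.006 with the replicate block. Timp1, an inhibitor of metalloproteinases, read 2.10, 0.62 and -0.46 against 0.52, -0.23 and 0.12 and did not pass either (-1.49 without LFG 3, adjusted p = 0.0898), whereas Timp2 fell (-1.54, adjusted p = 0.0145). Vim, the intermediate filament of mesenchymal cells, fell by 1.57 on the log2 scale without LFG 3 (adjusted p = 0.0119). Lrat, which esterifies vitamin A in stellate cells, read 3.94, 4.01 and 1.09 against 3.37, 3.75 and 2.99, with -0.58 ± 0.24 without LFG 3 (adjusted p = 0.124). Without LFG 3, 1 of 14 myofibroblast and smooth muscle genes and 1 of 11 quiescent stellate cell genes fell, a share near that of all genes (6.94%). Of the latter list LFG 3 lay below REG for 10 of 11, so LFG 3 was low for stellate cell markers of the healthy liver too. Pdgfra, a PDGF receptor of fibroblasts, fell (-1.83, adjusted p = 0.0149).

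Scar-associated and recruited macrophage genes were likewise high in LFG 1 and LFG 2 and lowest in LFG 3. Trem2, a lipid-sensing receptor of scar macrophages, had 959, 362 and 1 counts in LFG and 108, 115 and 56 in REG, and Gpnmb, a lysosomal glycoprotein of the same cells, 4388, 969 and 0 and 280, 306 and 299. Without LFG 3 both fell, with folds of -2.47 and -2.80 (adjusted p = 0.0156 and 0.0154), and with it neither passed (adjusted p = 0.59 and 0.597). Mmp12, the macrophage elastase, differed also between LFG 1 and LFG 2, at 6.30 and 2.43, and fell by 3.50 on the log2 scale. Of 25 tested genes 12 fell without LFG 3 (6.94% of all genes), and LFG 3 lay below REG for 22. Of 17 resident Kupffer cell genes 1 fell, near the share of all genes, the median was -0.11 with and -0.59 without LFG 3, and LFG 3 lay below REG for 15. The difference between the 2 lists was not tested. Clec4f read 7.20, 6.75 and 5.86 in LFG and 8.38, 7.30 and 6.58 in REG (0.61 without LFG 3, adjusted p = 0.384), and Vsig4 differed by -0.48 ± 0.43. Cd163, a scavenger receptor, was the member that fell and had all LFG libraries above REG, at 3.77, 4.39 and 2.74 against 2.66, 1.67 and 1.32.

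LFG 3 was low for most lists of non-hepatocyte cells of the liver. It lay below every REG library for 23 of 25 tested genes of sinusoidal endothelium, 21 of 22 of T and NK cells, 11 of 12 of B and plasma cells, 15 of 17 of Kupffer cells, 10 of 11 of portal fibroblasts and 22 of 26 interferon-stimulated genes, and above REG in 0 to 1 of each. Mesothelial genes were an exception, with LFG 3 below REG for 2 of 7 and above for 4. Between REG and the other LFG libraries 3 of 11 portal fibroblast genes and 2 of 12 B and plasma cell genes fell, where 6.94% of all genes did, and 0 of either rose. Of 25 endothelial genes 2 fell and 0 rose, of 26 interferon-stimulated genes 2 and 0, and of 23 T and NK cell genes 0 fell and 1 rose (3.81% of all genes). The mean deviation of the macrophage list was 1.70, 0.70 and -2.33 in LFG 1, LFG 2 and LFG 3, that of the fibrillar collagens 1.73, 1.28 and -2.03, and that of the endothelial list 0.28, 0.47 and -1.34. The part of these cells in the collagen and macrophage values of LFG 3 was not tested.

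**Figure D4:**
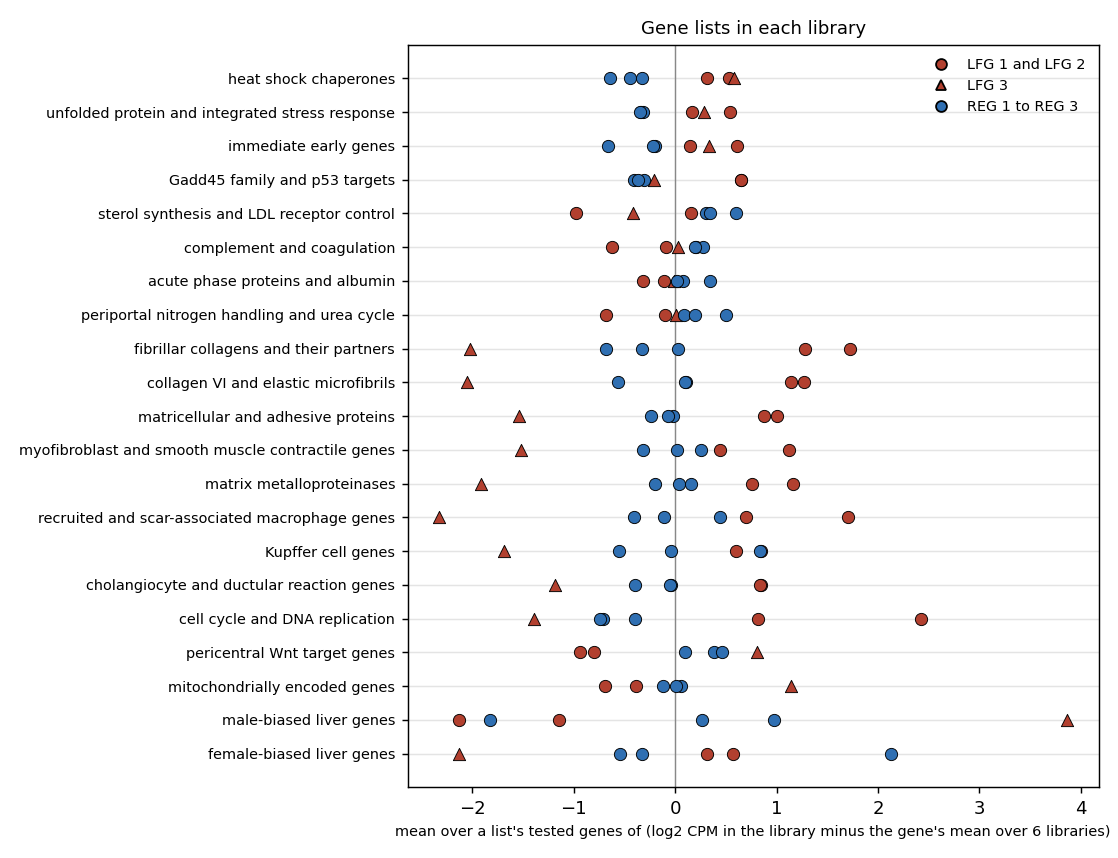
Mean over the tested genes of each of 21 lists (vertical axis) of log2 CPM in a library minus the gene's mean over the 6 libraries (horizontal axis), with circles for LFG 1, LFG 2 and REG 1 to REG 3 and a triangle for LFG 3. Heat shock and unfolded protein lists are above 0 in all 3 LFG libraries, collagen, macrophage and cell cycle lists are above 0 in LFG 1 and LFG 2 and lowest in LFG 3, and the male-biased list is at 3.87 in LFG 3.

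Cell division genes were high in LFG 1, less so in LFG 2, and most of them fell without LFG 3. Mki67, a nuclear protein of dividing cells, had 2203, 446 and 19 counts in LFG and 101, 94 and 52 in REG (-3.60 ± 0.55 without LFG 3, adjusted p = 0.0153, and -3.07 ± 1.17, adjusted p = 0.41, with it). Of 32 tested genes 27 fell and 0 rose without LFG 3 (6.94% and 3.81% of all genes), with a median of -2.46. With 6 libraries the median was -1.96, and 13 of 31 were lower in REG at an unadjusted p under 0.05 (6.7% of all genes). Without overlap 3 of 31 were lower in REG, a share near the 8.18% of all genes. Those 3 were Ccne1, Ccne2 and Kif11. Ccne1, a cyclin of entry into S phase, read 2.92, 2.24 and 1.89 against 1.25, 0.56 and 1.47, and Kif11, a spindle motor, 3.96, 2.06 and 0.90 against 0.80, 0.56 and 0.55. For the mitotic cyclin Ccnb1 LFG 3 had 0 counts, and REG was again between LFG 3 and the other LFG libraries.

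Genes of ductular cells, of hepatocyte injury and of the NRF2 antioxidant response fell in part. Bicc1, an RNA-binding protein of duct cells, read 3.36, 3.60 and -0.29 in LFG and 1.59, 1.36 and 1.19 in REG (-2.16 without LFG 3, adjusted p = 0.0119), Epcam and Krt7 fell, and Krt19 did not pass (-0.88, adjusted p = 0.192). The cholangiocyte list had 6 of 16 and the injury and fetal-like list 6 of 21 that fell, and among NRF2 targets 7 of 22 fell without LFG 3, where 6.94% of all genes did. Cbr3, a carbonyl reductase, read 4.32, 5.48 and -1.79 against 1.46, 0.62 and 0.66 and Srxn1, which restores peroxiredoxins, 7.48, 7.35 and 5.11 against 5.67, 5.86 and 5.77, both with LFG 3 below REG. Gclc, the rate-limiting subunit of glutathione synthesis, stayed apart with LFG 3 included, at 7.98, 8.40 and 7.86 against 6.88, 6.98 and 6.94 (-1.21 ± 0.22, and -1.28 with adjusted p = 0.0152 without LFG 3).

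For pericentral hepatocyte genes the result turned on LFG 3. Glul, the glutamine synthetase of the last hepatocytes before the central vein, read 6.63, 7.36 and 10.65 in LFG and 9.28, 9.55 and 9.60 in REG. It rose without LFG 3 (2.44 ± 0.29, adjusted p = 0.0119), but with 6 libraries its fold was 0.14 ± 0.98. LFG 1 and LFG 2 were below every REG library and LFG 3 above. Slc1a2, a glutamate transporter of the same cells, had 19, 128 and 3009 counts in LFG and 2360, 2920 and 4125 in REG, a fold of 5.54 ± 0.82 without and 0.92 ± 1.59 with LFG 3. Cyp2e1, which activates CCl4, read 9.52, 11.17 and 13.52 against 12.16, 12.39 and 12.37 (1.73 ± 0.49, adjusted p = 0.0489, without LFG 3 and -0.01 ± 0.90 with it), which with RLE scaling and LFG 3 left out missed the threshold at an adjusted p of 0.0501. Ornithine aminotransferase, Oat, read 7.38, 6.76 and 10.41 against 8.71, 8.90 and 8.85 and rose without LFG 3 (adjusted p = 0.0145). The list as a whole had a median of -0.004 with and 0.90 without LFG 3, and 6 of 16 genes rose without it (3.81% of all genes). Rnf43, a Wnt feedback ligase, was a member for which LFG 3 stayed below REG, at 4.08, 3.27 and 4.70 against 4.87, 5.18 and 5.42 (1.01 ± 0.37, and 1.44 with adjusted p = 0.0221 without LFG 3).

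Over all genes, 33 of the 1272 that were called without LFG 3 and tested in both fits had the opposite sign with 6 libraries, and all 33 rose in REG without LFG 3. Besides Cyp2e1 and Oat they included Fabp1, the fatty acid carrier of hepatocytes, at 9.83, 9.50 and 13.29 in LFG and 11.09, 11.05 and 11.15 in REG, with folds of 1.42 ± 0.25 without and -0.89 ± 0.99 with LFG 3. Nudt7, a peroxisomal CoA hydrolase, read 5.31, 5.69 and 9.49 against 6.90, 8.49 and 7.99. Hsd3b5, a steroid dehydrogenase typical of male liver, read -2.34, -2.16 and 8.13 against -0.70, 2.81 and 1.12, with a fold of 4.95 ± 1.27 (adjusted p = 0.0399) without LFG 3 and -4.97 ± 2.59 with it. The levels of Hsd3b5 in LFG 1 and LFG 2 were near the floor that the prior count sets, so the size of its fold without LFG 3 is uncertain. The median of the male-biased list also changed sign, from 1.46 without to -1.5 with LFG 3, which was above every REG library for 19 of 19 genes. Without LFG 3, 2 of the 19 rose (3.81% of all genes). The list's mean deviation was -2.13 in LFG 1, -1.14 in LFG 2 and 3.87 in LFG 3, and -1.83, 0.97 and 0.27 in REG 1, REG 2 and REG 3, so that REG 1 lay between LFG 1 and LFG 2. Mup7, a major urinary protein that male mice secrete, had 37, 75 and 127097 counts in LFG and 12, 656 and 100 in REG, so that 1 library set its fold of -8.10 ± 3.49. Mup genes share sequence and their single counts are uncertain. Of the female-biased list LFG 3 was below REG for 14 of 18, and REG 1 was the highest library, for example for the repressor Cux2, at 6.37, 4.33 and 0.19 in REG and -0.43, 0.99 and -1.11 in LFG. All of these mice were male by their labels.

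On the TMM scale, mitochondrial and ribosomal transcripts were also high in LFG 3. mt-Cytb, a subunit of respiratory complex III, read 12.15, 12.42 and 13.81 in LFG and 12.47, 12.76 and 12.60 in REG, and LFG 3 was above REG for 11 of 11 tested mitochondrially encoded genes. For nuclear-encoded subunits of oxidative phosphorylation the median was 0.07 with and 0.70 without LFG 3, and 5 of 46 rose without it (3.81% of all genes): Sdhb, Atp5g1, Atp5j, Uqcrq and Ndufb10. LFG 3 was above REG for 34 of the 46 and for 51 of 64 cytosolic ribosomal proteins. Without TMM, the summed CPM of the ribosomal list was 17380 in LFG 3, beside 17720 in LFG 1, 13080 in LFG 2 and 13820 to 15780 in REG. Of 18 hepatocyte transcription factors 2 rose and 0 fell without LFG 3 (3.81% and 6.94% of all genes). Nr1h4, the bile acid receptor, read 6.10, 6.45 and 7.61 against 7.49, 7.33 and 7.57 and rose without LFG 3 (adjusted p = 0.0159), as did Cebpa, with LFG 3 within REG (1.47, adjusted p = 0.0324).

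Clock genes moved in both directions. Dbp, an output factor of the circadian clock, read 4.56, 4.43 and 7.19 in LFG and 7.58, 7.48 and 7.14 in REG, and without LFG 3 had one of the smallest adjusted p-values of the fit (2.91 ± 0.21, adjusted p = 0.00855). With 6 libraries the groups overlapped (1.36 ± 0.76, adjusted p = 0.529). Arntl (Bmal1), a core activator in opposite phase to Dbp, had 158, 111 and 0 counts in LFG and 6, 26 and 7 in REG and fell without LFG 3 (-3.09, adjusted p = 0.0181). Pdk4, which blocks pyruvate oxidation in fasting, read 4.51, 5.04 and 0.22 against 1.0, 1.42 and 1.29 and shared the smallest adjusted p (-3.62 ± 0.25, adjusted p = 0.00855). For these 3 genes LFG 3 lay within or below REG. Per3 and Cry1, repressors of the core loop, were apart in all libraries, Per3 higher in REG (0.84 ± 0.31) and Cry1 lower (-1.32 ± 0.45). Of the core genes with a promoter entry, the E-box CACGTG was in the 250 bases before the start in 4 of 13 (30.8%, against 6.86% of all genes), the D-box TTATGTAA in 2 of 13 (15.4%, against 0.977%) and the CRE TGACGTCA in 0 of 13 (against 1.77%). The core list of 17 tested genes had 2 that rose and 3 that fell without LFG 3 (3.81% and 6.94% of all genes). The list of output genes, which holds Dbp and Pdk4, had 1 of 18 that rose and 4 that fell. Whether the hour of sacrifice moved with the groups was not tested.

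Genes of PI3K, AKT and mTOR signaling, kinases and brakes, had a median fold of -0.14 with and -0.17 without LFG 3. The study followed this pathway by phosphorylation and protein as well as by mRNA, and only mRNA is given here. Akt1 read 6.07, 6.06 and 5.81 in LFG and 6.16, 6.0 and 6.0 in REG (0.03 ± 0.17) and Mtor 6.02, 5.91 and 5.73 against 6.10, 5.4 and 5.78 (-0.14 ± 0.23). Of 27 tested genes 1 was higher and 2 were lower without overlap (10.8% and 8.18% of all genes), and 1 rose and 2 fell without LFG 3 (3.81% and 6.94%), so that the counts were near or below the shares of all genes. Among cytokines, Il1b read 0.77, 1.37 and 1.09 against 2.13, 2.24 and 1.35 and did not pass (0.85 ± 0.40, adjusted p = 0.476), and Il10 had 14, 12 and 0 counts in LFG and 11, 3 and 3 in REG. Tnfsf10 (TRAIL), a death ligand, was higher in REG without overlap, at 4.19, 4.2 and 3.55 against 2.58, 2.26 and 0.68, and rose without LFG 3 (1.59, adjusted p = 0.0164). Over the list of cytokines and their receptors, 2 of 20 tested genes were higher and 3 lower without overlap (10.8% and 8.18% of all genes). Without LFG 3, 1 of 21 rose and 4 fell (3.81% and 6.94% of all genes), and the median was -0.31. Hamp, the iron hormone hepcidin, varied more within the groups than between them, from 1.96 to 8.41 in REG alone.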

How the data were processed

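RNA of mouse liver had been extracted with Trizol, made into libraries with an NEBNext Ultra kit and sequenced on an Illumina NovaSeq. The authors deposited raw read counts per gene for 9 libraries, and beside them FPKM, which equals the counts over gene length and library size and was used only for that check. The submitters' processing notes name cutadapt 1.15, HISAT2 2.0.5, HTSeq 0.9.1, DESeq 1.30.0 and GRCm38. The use of strand in counting is not given in the sources used here, so genes that overlap another gene, or share sequence with a close relative, have uncertain counts. Of 21936 genes, 21894 were found in GENCODE vM21 and 21694 of them had the same start and end, while 31 symbols stood on 67 entries and were separated by gene identifier. Columns of the authors' own comparisons were not used here.

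The test on the counts of the 6 libraries was that of edgeR 4.0.16 under R 4.3.3 (two-sided quasi-likelihood test, TMM, filterByExpr, Benjamini-Hochberg adjustment over all genes tested), at the study's thresholds of 0.05 and 1. Alternatives were RLE and upper-quartile scaling, DESeq2 1.42.0, voom with quality weights in limma 3.58.1, all genes with a count, genes with 10 or more counts in each library, all 9 libraries, a replicate block, and leaving out each library. The smallest p of an exact permutation test of 3 against 3 is 0.1. Errors of fold changes are standard errors. Tables and plots were made with pandas 2.3.3 and matplotlib 3.10.9 in Python 3.11.15.

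On simulated data drawn from these libraries, the test with 6 libraries recovered 0%, 56.4% and 88.1% of genes changed by 1, 2 and 3 on the log2 scale, and without LFG 3 9.79%, 89.1% and 97.9%. Totals of 13837445 to 19840917 counts per library leave counting error small beside the spread between libraries for all but the lowest genes. No library repeated another of its group (the lowest chi-square per gene was 23.4). Deviations of same-numbered LFG and REG libraries correlated by 0.422, -0.208 and 0.315, so the numbers were not treated as pairs.

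The members, gene lists and tests were chosen with earlier results of these data known. Genes were named as follows: the 10 with the smallest p in each direction whose groups did not overlap, the 10 called without LFG 3 in each direction (both with a mean log2 CPM of at least 1), for each list the 3 with the smallest p and any member whose groups did not overlap, and defining genes of the model. Of 337 genes so taken, 335 were tested. Promoters were the 250 bases before each start in RefSeq (GRCm38.p6), and the ER stress element was searched after the values were seen. Not every gene so taken is printed, and the result of 1 of them is not reported here.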

Additional observations from a re-analysis of the deposited data

How the results depend on the processing

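The count of genes past both thresholds, 0 with edgeR, stayed 0 with RLE or upper-quartile scaling, without the filter on low counts, with at least 10 counts in every library, with all 9 libraries, without the limit on fold change and with the replicate block. DESeq2 gave 240 and limma with voom and quality weights 1285. Leaving out 1 library at a time gave 0 to 1391, the highest without LFG 3 and 0 for each of the others. With LFG 3 left out, RLE scaling gave 1366, DESeq2 1794 and limma 1832. Of the 1391 edgeR genes, DESeq2 without LFG 3 shared 1385, which is 99.6% of the 1391 and 77.2% of its own list, and limma with all 6 libraries shared 937, which is 67.4% and 72.9%.

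At an unadjusted p, 578 genes were higher and 839 lower in REG with TMM, 857 and 680 with upper-quartile scaling, and 2503 and 2753 with limma. Leaving out 1 library gave 262 to 2359 higher and 322 to 2471 lower, the lowest without REG 2 and the highest without LFG 3. With LFG 3 left out, DESeq2 gave 2472 and 2431, limma 2520 and 2741, and RLE scaling 2355 and 2472. With the replicate block, 487 genes were higher and 591 lower and 0 passed both thresholds; same-numbered libraries did not deviate together for number 2 (correlation -0.208), so the numbers were not taken as pairs.

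Of the 335 tested genes that the naming rule took, 1 changed its sign among called values, and genes printed outside that rule that also turned, such as Oat, Fabp1, Nudt7 and Hsd3b5, are among the 33 given in the report. The 1 was Cyp2e1, whose log2 fold change of -0.01 with 6 libraries lay between -0.52 and 1.73 when 1 library was left out, the highest without LFG 3. With the same 6 libraries it was 1.34 with limma and quality weights (adjusted p = 0.0586) and 0.90 with the replicate block (adjusted p = 0.756). With LFG 3 left out it was 1.73 with DESeq2 and 1.95 with limma, and with RLE scaling it missed the threshold (adjusted p = 0.0501). Without LFG 3, 134 of the named genes newly passed, and with all 6 libraries 73 with DESeq2 and 145 with limma. Among the 63 lists, 58 kept the sign of their median under TMM, RLE, upper-quartile and DESeq2 scaling. The 5 that did not were quiescent stellate cell genes (-0.01 to 0.02), pericentral genes (-0.004 to 0.10), apolipoproteins (-0.02 to 0.08), circadian output genes (-0.08 to 0.004) and cytosolic ribosomal proteins (-0.03 to 0.06). In the simulation with 6 libraries, edgeR recovered 0% of changes of 1 on the log2 scale. The threshold of 1 on the fold itself also limits that share, and the simulation lacked the shared shift of LFG 3.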

Other observations

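Drug-metabolising genes of hepatocytes moved in both directions and again by the place of LFG 3. Among the cytochromes P450 outside the Cyp2c family, 5 of 39 tested genes were higher in every REG library than in every LFG library and 0 were lower (10.8% and 8.18% of all genes), and without LFG 3 7 rose and 2 fell (3.81% and 6.94% of all genes). Cyp2a22 read 0.41, 2.17 and 0.42 in LFG and 3.36, 3.60 and 3.61 in REG (2.27 ± 0.55 with and 2.04 without LFG 3, adjusted p = 0.0342 by edgeR's quasi-likelihood test for the latter). Cyp4a31, of a family that oxidises fatty acids at their end, fell without LFG 3 (-3.08 ± 0.54, adjusted p = 0.0173), at 5.82, 5.6 and 3.42 against 3.56, 2.32 and 1.22. Cyp2c38 had LFG 3 above every REG library, at 1.39, 2.19 and 5.56 against 4.26, 3.92 and 3.92, and its fold went from 2.23 without to -0.18 with LFG 3. Gstm7, a glutathione transferase, was higher in every REG library, at 6.44, 6.85 and 6.58 against 5.4, 5.71 and 6.03 (0.85 ± 0.23, and 1.06 with adjusted p = 0.0181 without LFG 3). Gsta1 fell by 3.40 on the log2 scale without LFG 3, which lay below REG at 0.90. Reads of close relatives in these families could have been split between genes.

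REG 1 had the highest mean deviation of the 6 libraries for the lists of red blood cell genes (1.57) and neutrophil genes (1.60), while the summed CPM of the neutrophil list was highest in LFG 1 (395.2 against 253.0 in REG 1). Hbb-bs, a beta globin, read 6.70, 6.76 and 3.89 in LFG and 9.0, 7.91 and 6.03 in REG, and the granule protein S100a8 of neutrophils 1.74, 0.68 and 0.83 against 3.23, 1.77 and 1.04. Neither passed in either fit. Of 7 tested red blood cell genes 1 rose without LFG 3 (3.81% of all genes), Alas2, an enzyme of heme synthesis (1.65, adjusted p = 0.0276). Slc39a10, a zinc importer, was lower in every REG library (-1.5 ± 0.40, and -1.75 with adjusted p = 0.0159 without LFG 3). Of the 11 tested metallothioneins and zinc or manganese transporters, 2 were higher and 2 lower without overlap (10.8% and 8.18% of all genes). Without LFG 3, 0 rose and 1 fell (3.81% and 6.94% of all genes). Cela1, the only pancreatic acinar gene of 14 that passed the filter with 6 libraries, read 2.74, 2.97 and 5.0 in LFG and 2.92, 3.40 and 3.02 in REG, with LFG 3 the highest library.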
